A study of Arabidopsis thaliana with 12 samples.

Results

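The difference between the cold response of ozs3 roots and the cold response of Col-0 roots was examined gene by gene in Arabidopsis thaliana. For each probe set it is the interaction of genotype and cold, (ozs3 at 4 °C minus ozs3 at 23 °C) minus (Col-0 at 4 °C minus Col-0 at 23 °C), on the log2 scale. All 12 of the 12 arrays of the study entered it, because each of the 4 group means is part of the contrast. A positive value means that the response was more positive in ozs3, and a negative value that it was more negative in ozs3.

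The 4 groups were roots of ozs3 at 4 °C, ozs3 at 23 °C, Col-0 at 4 °C and Col-0 at 23 °C, each with 3 biological replicates hybridised to 1 ATH1 array apiece. The mutant ozs3 (overly zinc sensitive 3) has the genetic background Col-0, and Col-0 is the wild type. All plants were 4 weeks old and had grown in hydroponic culture at 23 °C in days of 8 h light and 16 h dark. The cold groups then spent 24 h at 4 °C, and the others stayed at 23 °C for the same time. Which gene carries the ozs3 mutation is not stated in the labels, so no gene level could be used to check them, and they do not say how many plants a replicate pooled.

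A plant cell that meets low but non-freezing temperature reprograms transcription within hours. CBF transcription factors switch on cold-regulated (COR) genes, whose products protect membranes and chloroplasts, while genes for ribosome assembly, cell wall remodelling and redox balance are adjusted over the following day. Plant mitochondria signal back to the nucleus when their electron transport is disturbed, and a group of nuclear genes, the mitochondrial dysfunction genes, is induced together by this route. In a 2 by 2 design a gene can show an interaction because 1 of the 4 groups stands apart or because several shift a little, and the group means tell these cases apart.

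The arrays were alike in quality. Their medians lay between 6.99 and 7.20 and the correlation between arrays of a group was 0.994 to 0.997 over all probe sets. The median SD of a probe set over the 3 arrays was 0.124 in ozs3 at 4 °C, 0.101 in ozs3 at 23 °C, 0.108 in Col-0 at 4 °C and 0.113 in Col-0 at 23 °C. Of the defining root hair genes, EXPA7 averaged 9.55 in ozs3 at 4 °C, 9.12 in ozs3 at 23 °C, 9.0 in Col-0 at 4 °C and 9.10 in Col-0 at 23 °C, and EXPA18 between 8.57 and 9.53. The third, XTH26, averaged 6.32 in ozs3 at 4 °C, 8.15 in ozs3 at 23 °C, 7.60 in Col-0 at 4 °C and 8.41 in Col-0 at 23 °C. GUT2, the 1 stele marker with a named probe set, averaged between 7.87 and 8.13. Of 5 leaf markers, PRK and SBPASE, enzymes of the Calvin cycle, stayed between 4.00 and 4.49 in all groups, at the level of dim probe sets. RCA, CHLM and LHCB4.1 were measured above it, with means from 6.66 to 8.76. No gene of the root uptake list had a named probe set.

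Genotype and cold interacted at 2300 of 22746 probe sets, or 10.1% of those tested (limma, adjusted p under 0.05 after Benjamini-Hochberg correction over all probe sets). The interaction was positive at 977 of them (4.3%) and negative at 1323 (5.82%). Sizes of the called interactions ran from 0.335 to 5.31, and 409 probe sets differed at least 2-fold (1 on the log2 scale). At an unadjusted p under 0.05 there were 5821 probe sets. In comparison, 51.1% of probe sets were called for cold in ozs3, 43.9% for cold in Col-0, 14.6% for the genotype difference at 4 °C and 6.34% for the genotype difference at 23 °C. These contrasts share arrays with the interaction and are given only for scale. The number of interaction calls fell to 1439 without ozs3 replicate 1 at 23 °C and to 1457 without ozs3 replicate 2 at 23 °C. The balance of directions depended on the scaling: with 1 common median for all arrays, 64% of 2567 calls were positive, against 42.5% here.

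A gene name could be given to 13350 genes, each represented by its brightest probe set, and 1259 of them (9.43%) were called. Of these, 530 (3.97%) had a positive and 729 (5.46%) a negative interaction, and the median over all named genes was 0.042. Over all named genes 56.6% of interactions lay above 0, called or not. Cold raised 23.3% of the named genes in ozs3 and 18.1% in Col-0, and lowered 25.3% in ozs3 and 22.9% in Col-0. Counts for gene lists below stand against the shares in this paragraph. At 2-fold or more the order turned, with 118 positive and 100 negative named genes. Below, values are log2 RMA values of replicates 1, 2 and 3, differences are log2 values ± the standard error (SE) moderated by limma, and adjusted p-values are for the interaction unless another contrast is named, fitted without a replicate block. The 15 largest interactions in each direction among named genes, the 5 largest for each departing group mean, and members of gene lists are described. Where a mean lies at or below 5, the probe set was dim there and a difference from it may be understated.

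The cold responses of both genotypes were compared for the 2300 called probe sets. Cold changed 849 of them (36.9%) past the threshold in ozs3 alone and 469 (20.4%) in Col-0 alone. Another 607 (26.4%) responded in the same direction in both genotypes with the larger response in ozs3, and 214 (9.3%) with the larger response in Col-0. At 154 (6.7%) the responses were called in opposite directions, and at 7 neither response was called. These are counts of calls in each genotype, and the interaction is the test of the difference between them. By size alone, the response was larger in ozs3 at 1536 of the 2300 and larger in Col-0 at 764. Among the positive interactions the median response was 0.51 in ozs3 and −0.16 in Col-0, and among the negative ones it was −0.66 in ozs3 and 0.01 in Col-0.

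**Figure D1:**
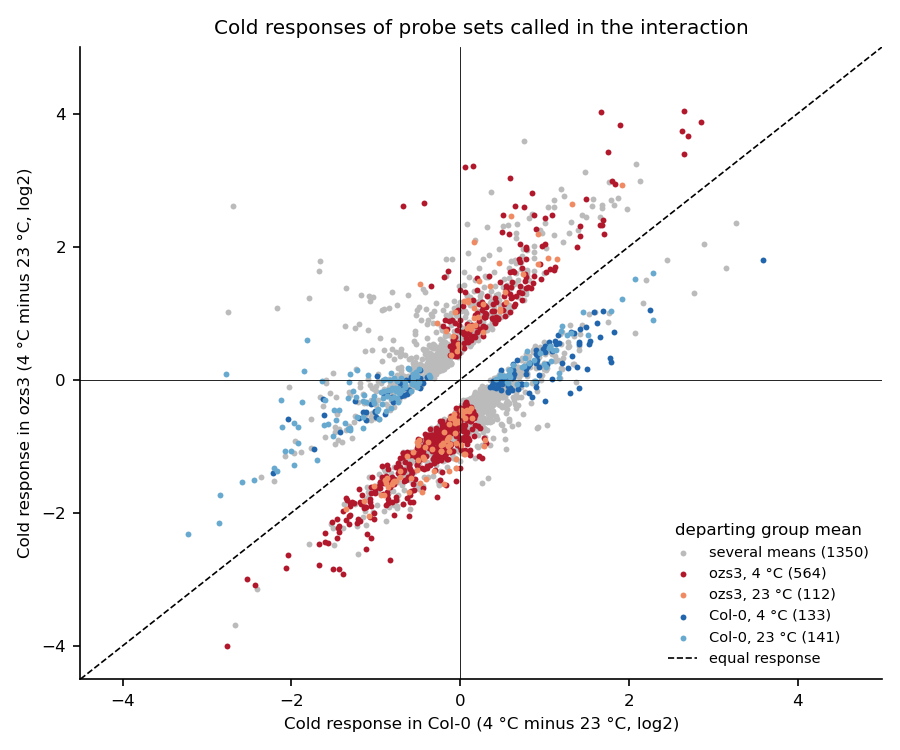
Cold response in ozs3 (vertical axis) against cold response in Col-0 (horizontal axis), both as 4 °C minus 23 °C on the log2 scale, for the 2300 probe sets called in the interaction. Colours give the group mean assigned by the share rule, and the dashed line marks an equal response; the empty band along it is where differences did not pass the test.

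The same interaction was split by temperature. At 1342 of the 2300 probe sets (58.3%) ozs3 and Col-0 differed past the threshold at 4 °C alone, and at 461 (20%) at 23 °C alone. At 113 (4.91%) they differed at both temperatures in opposite directions, at 31 (1.35%) in the same direction, and at 353 (15.3%) neither difference was called by itself. By size, the difference between genotypes was larger at 4 °C at 1531 probe sets and larger at 23 °C at 769. The median share of the interaction that came from the difference at 4 °C was 0.64.

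To say which group mean departed, the interaction of each called probe set was divided in both ways. A probe set was assigned to ozs3 at 4 °C, for example, where at least 0.75 of the interaction came from the difference between genotypes at 4 °C and at least 0.75 from the ozs3 response. This is a description of means and has no test. By this rule 564 probe sets (24.5% of the called ones) were assigned to ozs3 at 4 °C, 112 (4.87%) to ozs3 at 23 °C, 133 (5.78%) to Col-0 at 4 °C and 141 (6.13%) to Col-0 at 23 °C. The remaining 1350 (58.7%) were spread over several means. When ozs3 at 4 °C departed, its mean lay high at 182 probe sets and low at 382. For the other 3 groups the departing mean lay high more often, at 74 against 38 probe sets for ozs3 at 23 °C, 92 against 41 for Col-0 at 4 °C and 99 against 42 for Col-0 at 23 °C. This balance also depended on the scaling: with 1 common median, ozs3 at 4 °C lay high at 318 and low at 275 probe sets, and ozs3 at 23 °C high at 53 and low at 61, so that both turned round, whereas repeated quantile normalization kept all 4 directions. Among interactions of at least 2-fold the counts were 98, 28, 20 and 23 in the same order of groups, with 240 spread over several means. The rule does not ask that the remaining 3 means be equal. When both partner shares also had to lie between −0.25 and 0.25, a condition added after the counts were seen, 194, 44, 57 and 50 probe sets were left in that order.

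**Figure D2:**
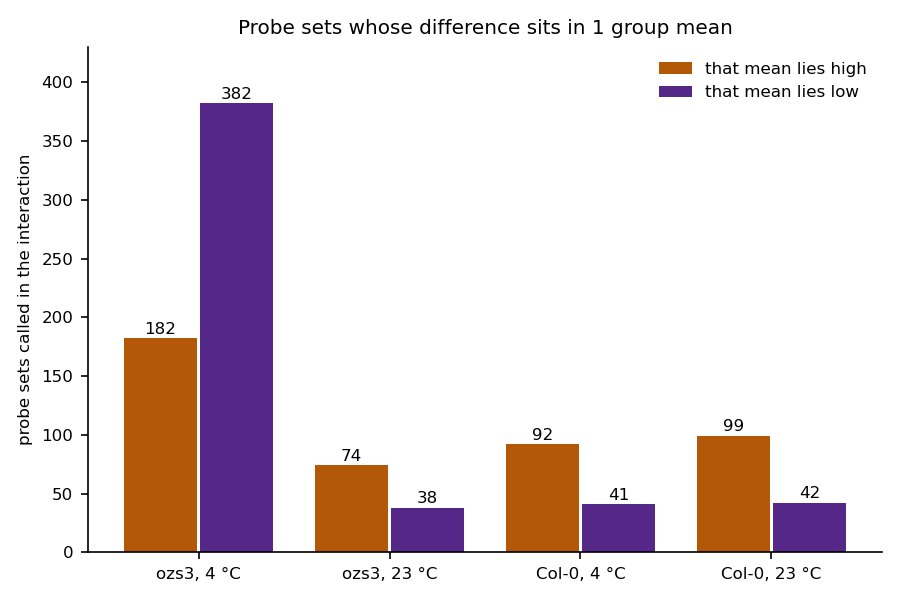
Number of called probe sets assigned to each of the 4 group means, split by whether that mean lay high or low against the pattern of the others. Only for ozs3 at 4 °C does the low bar (382) exceed the high bar (182), an order that turned round (275 low, 318 high) with 1 common median.

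The largest interaction was that of AT2G41730, a gene used as a marker of mitochondrial dysfunction. Its values were 10.78, 10.67 and 10.56 in ozs3 at 4 °C and 8.26, 7.66 and 8.24 in ozs3 at 23 °C, against 7.56, 6.95 and 7.41 in Col-0 at 4 °C and 10.12, 8.89 and 10.98 in Col-0 at 23 °C. The ozs3 arrays at 4 °C lay above all ozs3 arrays at 23 °C, whereas the Col-0 arrays at 4 °C lay below all Col-0 arrays at 23 °C. Cold thus raised it by 2.62 ± 0.37 in ozs3 (adjusted p = 4.33e-05) and lowered it in Col-0 by a difference of −2.69 ± 0.37 (adjusted p = 4.07e-05), and the interaction was 5.31 ± 0.52, adjusted p = 0.000145. The genotype difference turned round as well, at 3.37 at 4 °C and −1.94 at 23 °C. Leaving out any single array gave interactions between 4.82 and 5.87. Its probe set is of the x type, which ATH1 uses for sets with probes that can also match other transcripts.

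The same reversal, with the arrays of both genotypes apart, was seen in AT2G21640, another mitochondrial stress marker. It measured 7.45, 7.52 and 7.64 in ozs3 at 4 °C and 6.17, 6.04 and 6.27 in ozs3 at 23 °C, against 6.19, 6.16 and 5.61 in Col-0 at 4 °C and 7.51, 6.61 and 7.90 in Col-0 at 23 °C (interaction 2.73 ± 0.35, adjusted p = 0.000708). The responses were 1.37 in ozs3 and −1.36 in Col-0. AT2G22880, which encodes a VQ motif protein, had 9.05, 9.14 and 8.78 in ozs3 at 4 °C and 7.98, 7.59 and 7.57 in ozs3 at 23 °C, against 8.41, 8.66 and 7.93 in Col-0 at 4 °C and 9.55, 9.41 and 9.55 in Col-0 at 23 °C (interaction 2.45 ± 0.23, adjusted p = 0.000145). Here Col-0 at 23 °C held the 3 highest arrays, and the low end was shared by ozs3 at 23 °C (7.57 to 7.98) and Col-0 replicate 3 at 4 °C (7.93). AT1G76600 moved by 0.77 in ozs3 and −1.25 in Col-0 (2.02 ± 0.20, adjusted p = 0.000145), and CCOAMT, a caffeoyl-CoA O-methyltransferase, by 1.06 in ozs3 and −0.91 in Col-0 (1.97 ± 0.31, adjusted p = 0.00235). For CCOAMT the genotypes differed by 0.06 at 4 °C (adjusted p = 0.908) and by −1.92 at 23 °C (adjusted p = 0.000212).

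AT1G10875 had 5.67, 5.98 and 6.33 in ozs3 at 4 °C and 4.11, 4.11 and 4.43 in ozs3 at 23 °C, against 5.27, 4.70 and 5.01 in Col-0 at 4 °C and 6.45, 5.76 and 7.74 in Col-0 at 23 °C (interaction 3.44 ± 0.50, adjusted p = 0.00148). The ozs3 mean at 23 °C was 4.21, in the dim range, and the arrays of each genotype were apart between temperatures. AT3G55790 had 7.73, 7.40 and 7.41 in ozs3 at 4 °C and 6.32, 5.19 and 6.14 in ozs3 at 23 °C, against 6.54, 5.79 and 5.48 in Col-0 at 4 °C and 8.54, 6.31 and 7.98 in Col-0 at 23 °C (interaction 3.30 ± 0.64, adjusted p = 0.00671). The ozs3 arrays were apart between temperatures, while Col-0 replicate 2 at 23 °C (6.31) fell below Col-0 replicate 1 at 4 °C (6.54). AT4G33666 behaved alike, with responses of 1.25 in ozs3 and −1.03 in Col-0 (2.27 ± 0.37, adjusted p = 0.00264). AT4G28460 had responses of 0.81 in ozs3 (adjusted p = 0.0989) and −1.36 in Col-0 (adjusted p = 0.0106), with an interaction of 2.16 ± 0.55, adjusted p = 0.0249. AT4G28460 lost its call when the data set lacked 4 °C replicate 2 or 3 of ozs3, 23 °C replicate 2 of ozs3, 4 °C replicate 1 of Col-0 or 23 °C replicate 1 of Col-0 (adjusted p = 0.0509 to 0.0644, within 0.00163 to 0.0644 over the 12 left-out fits) and with a robust variance prior (0.0569).

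Several of these genes varied between the Col-0 arrays at 23 °C. Over the 15 named genes with the largest positive interaction, the median SD was 0.27 in ozs3 at 4 °C, 0.23 in ozs3 at 23 °C, 0.32 in Col-0 at 4 °C and 0.68 in Col-0 at 23 °C. Among the Col-0 arrays at 23 °C, replicate 2 was the lowest in 12 of the 15 genes and replicate 3 the highest in 10. Over the 15 named genes with the largest negative interaction the medians lay between 0.19 and 0.23 in all 4 groups. The part of this spread in the positive interactions was not tested beyond leaving out arrays. Without Col-0 replicate 2 at 23 °C there were 1803 interaction calls and without replicate 3 there were 1658, and no called interaction changed sign in either case.

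**Figure D3:**
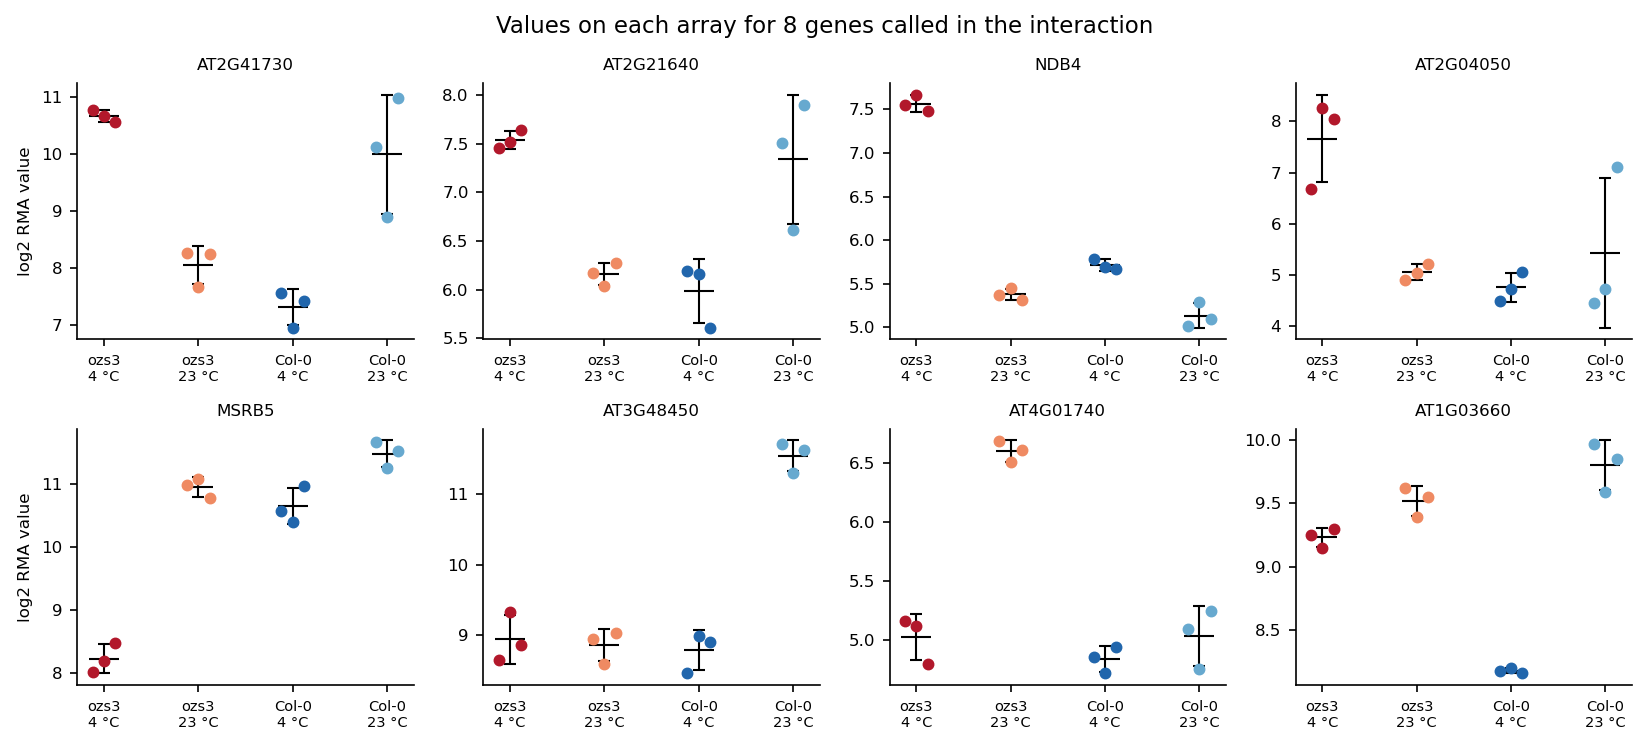
Log2 RMA values on each array for 8 called genes, 1 panel per gene, with points for replicates 1 to 3 and bars for the mean ± SD of 3 arrays. AT2G41730 and AT2G21640 run in opposite directions in the 2 genotypes, NDB4, AT2G04050 and MSRB5 depart in ozs3 at 4 °C, AT3G48450 in Col-0 at 23 °C, AT4G01740 in ozs3 at 23 °C and AT1G03660 in Col-0 at 4 °C.

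In other genes cold brought a rise in ozs3, while the Col-0 response did not pass. AT2G32020, of the GNAT acetyltransferase family, had 11.36, 11.42 and 11.37 in ozs3 at 4 °C and 7.81, 7.34 and 8.24 in ozs3 at 23 °C, against 9.61, 9.62 and 9.05 in Col-0 at 4 °C and 8.55, 7.99 and 9.46 in Col-0 at 23 °C. Its 3 ozs3 arrays at 4 °C lay above all other arrays, and its interaction was 2.83 ± 0.42, adjusted p = 0.00164. The response was 3.59 in ozs3 (adjusted p = 3.44e-07) and 0.75 in Col-0 (adjusted p = 0.0566). AR781 likewise rose by 1.81 in ozs3 (adjusted p = 3.68e-05), with −0.17 in Col-0 (adjusted p = 0.662), and its interaction was 1.98 ± 0.36, adjusted p = 0.00456. It started lower in ozs3 at 23 °C, by a genotype difference of −1.40 (adjusted p = 0.00479).

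Genes assigned to ozs3 at 4 °C with a high mean included AT2G04050, a MATE family efflux transporter. It had 6.68, 8.26 and 8.05 in ozs3 at 4 °C and 4.90, 5.04 and 5.22 in ozs3 at 23 °C, against 4.49, 4.73 and 5.05 in Col-0 at 4 °C and 4.46, 4.72 and 7.11 in Col-0 at 23 °C. The 3 ozs3 arrays at 4 °C were apart from the other ozs3 arrays and from Col-0 at 4 °C, but Col-0 replicate 3 at 23 °C (7.11) lay above the lowest of them. Its interaction was 3.29 ± 0.77, adjusted p = 0.0179, and means of 4.76 in Col-0 at 4 °C put it in the dim range there. AT2G04050 lost its call with a robust variance prior (adjusted p = 0.0525).

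GSTU25, a tau class glutathione transferase, rose by 3.83 in ozs3 and 1.89 in Col-0, with 9.55, 10 and 10.08 in ozs3 at 4 °C and 5.69, 5.98 and 6.47 in ozs3 at 23 °C, against 7.70, 8.31 and 7.55 in Col-0 at 4 °C and 5.79, 5.04 and 7.05 in Col-0 at 23 °C. The genotypes differed by 2.02 at 4 °C (adjusted p = 0.0033) and by 0.09 at 23 °C, and the interaction was 1.94 ± 0.54, adjusted p = 0.0379. GSTU25 lost its call when the data set lacked 4 °C replicate 2 or 3 of ozs3, 23 °C replicate 1 or 2 of ozs3, 4 °C replicate 1 or 3 of Col-0 or 23 °C replicate 1 of Col-0 (adjusted p = 0.056 to 0.0911, within 0.00822 to 0.0911 over the 12 left-out fits) and with a robust variance prior (0.0789). AT3G10930 rose by 2.81 in ozs3 (adjusted p = 9.93e-06), with 0.85 in Col-0 (adjusted p = 0.0572), and its interaction was 1.96 ± 0.48, adjusted p = 0.0218. AT3G10930 lost its call when the data set lacked 23 °C replicate 1 or 2 of ozs3 or 4 °C replicate 1 of Col-0 (adjusted p = 0.0514 to 0.0552, within 0.00553 to 0.0552 over the 12 left-out fits). AT5G43450, a 2-oxoglutarate-dependent oxygenase family gene, had 1.40 in ozs3 and −0.34 in Col-0 (1.75 ± 0.33, adjusted p = 0.00536), with the 3 means other than ozs3 at 4 °C in the dim range.

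The same mean lay low in MSRB5, a methionine sulfoxide reductase that repairs oxidised protein. It had 8.02, 8.19 and 8.48 in ozs3 at 4 °C and 10.98, 11.08 and 10.77 in ozs3 at 23 °C, against 10.57, 10.40 and 10.97 in Col-0 at 4 °C and 11.66, 11.25 and 11.52 in Col-0 at 23 °C. The 3 ozs3 arrays at 4 °C were the lowest of all 12. MSRB5 fell in both genotypes, with differences of −2.71 in ozs3 and −0.83 in Col-0, and its interaction was −1.88 ± 0.22, adjusted p = 0.00045, the most negative of any named gene. AT1G54730, of the sugar transporter family, had 6.32, 6.17 and 6.03 in ozs3 at 4 °C and 7.79, 7.73 and 7.59 in ozs3 at 23 °C, against 7.71, 7.48 and 7.84 in Col-0 at 4 °C and 7.56, 7.92 and 7.71 in Col-0 at 23 °C. Its ozs3 arrays at 4 °C were also the lowest, and the other 3 groups overlapped (interaction −1.47 ± 0.17, adjusted p = 0.000331). The response was −1.53 in ozs3 and −0.05 in Col-0 (adjusted p = 0.765). AT5G36160, a tyrosine transaminase family gene, fell in ozs3 by a difference of −1.18 and rose in Col-0 by 0.26 (adjusted p = 0.0348), with an interaction of −1.45 ± 0.13, adjusted p = 0.000143. AT3G50880, a DNA glycosylase family gene, fell in both, with −2.85 in ozs3 and −1.44 in Col-0 (−1.41 ± 0.21, adjusted p = 0.00159).

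The clearest case of a departing Col-0 mean at 23 °C was AT3G48450, of the RIN4/NOI family of nitrate-induced proteins. It had 8.64, 9.32 and 8.85 in ozs3 at 4 °C and 8.94, 8.59 and 9.03 in ozs3 at 23 °C, against 8.45, 8.98 and 8.90 in Col-0 at 4 °C and 11.72, 11.30 and 11.63 in Col-0 at 23 °C. The 3 Col-0 arrays at 23 °C lay at 11.30 or more, and the arrays of the other groups lay between 8.45 and 9.32. Cold lowered it in Col-0 by a difference of −2.77 (adjusted p = 7.45e-08), and the ozs3 response was 0.09 (adjusted p = 0.723). The interaction was 2.86 ± 0.26, adjusted p = 0.000143, and leaving out any single array gave 2.66 to 3.0.

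AT1G26380, a berberine bridge enzyme-like gene of indolic defence metabolism, had 6.63, 5.99 and 5.76 in ozs3 at 4 °C and 6.14, 6.05 and 5.81 in ozs3 at 23 °C, against 6.80, 6.16 and 5.67 in Col-0 at 4 °C and 8.08, 8.05 and 8.07 in Col-0 at 23 °C. Again only Col-0 at 23 °C stood apart (interaction 1.98 ± 0.34, adjusted p = 0.00371). The genotypes differed by −0.08 at 4 °C (adjusted p = 0.868) and by −2.06 at 23 °C (adjusted p = 0.000236). AT3G46480, another 2-oxoglutarate-dependent oxygenase gene, had responses of −0.03 in ozs3 and −1.64 in Col-0 (1.61 ± 0.19, adjusted p = 0.000452). AT2G37810, of the C1 domain family, had −0.33 in ozs3 and −1.88 in Col-0 (1.54 ± 0.22, adjusted p = 0.00123). AT5G51440, a mitochondrial small heat shock protein, fell in both genotypes, with −0.71 in ozs3 and −2.11 in Col-0 (1.40 ± 0.36, adjusted p = 0.0272). AT5G51440 lost its call when the data set lacked 4 °C replicate 2 or 3 of ozs3, 23 °C replicate 1 of ozs3, 4 °C replicate 1 or 2 of Col-0 or 23 °C replicate 2 or 3 of Col-0 (adjusted p = 0.0507 to 0.0654, within 0.0111 to 0.0654 over the 12 left-out fits).

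Genes assigned to ozs3 at 23 °C included AT4G01740, of the C1 domain family. It had 5.16, 5.12 and 4.80 in ozs3 at 4 °C and 6.69, 6.51 and 6.61 in ozs3 at 23 °C, against 4.86, 4.72 and 4.94 in Col-0 at 4 °C and 5.10, 4.76 and 5.25 in Col-0 at 23 °C. The 3 ozs3 arrays at 23 °C lay at 6.51 or more and all others at 5.25 or less, near the dim range, and the interaction was −1.38 ± 0.18, adjusted p = 0.000886. AT3G47680 showed 5.32, 5.30 and 5.37 in ozs3 at 4 °C and 6.53, 6.84 and 6.73 in ozs3 at 23 °C, against 5.05, 5.03 and 5.04 in Col-0 at 4 °C and 5.02, 5.31 and 5.21 in Col-0 at 23 °C (interaction −1.24 ± 0.13, adjusted p = 0.000228). Once more the ozs3 arrays at 23 °C stood above the others. AT3G44400, a TIR-NBS-LRR disease resistance family gene, had −1.0 in ozs3 and 0.29 in Col-0 (−1.28 ± 0.18, adjusted p = 0.00114), with the 3 means other than ozs3 at 23 °C below 5.

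In a further pair of genes the ozs3 mean at 23 °C lay low. AT4G33980 (COR28), a cold-regulated gene linked to the circadian clock, had 10.18, 10.06 and 9.79 in ozs3 at 4 °C and 7.05, 7.30 and 7.78 in ozs3 at 23 °C, against 9.92, 10.04 and 9.83 in Col-0 at 4 °C and 8.45, 9.0 and 8.36 in Col-0 at 23 °C. The cold arrays of the genotypes overlapped, and at 23 °C all ozs3 arrays lay below all Col-0 arrays (genotype difference −1.23, adjusted p = 0.00165). It rose in both genotypes, by 2.64 in ozs3 and 1.33 in Col-0, and the interaction was 1.31 ± 0.26, adjusted p = 0.00803. GRX480, a CC-type glutaredoxin of salicylate and jasmonate signalling, had 7.49, 7.06 and 6.73 in ozs3 at 4 °C and 5.40, 5.68 and 5.87 in ozs3 at 23 °C, against 6.88, 6.99 and 6.73 in Col-0 at 4 °C and 6.69, 6.70 and 8.63 in Col-0 at 23 °C. Its interaction was 1.92 ± 0.55, adjusted p = 0.042. The size leaned on 1 array: without Col-0 replicate 3 at 23 °C, at 8.63, the interaction was 1.27 and was still called. GRX480 lost its call when the data set lacked 4 °C replicate 1 or 2 of ozs3, 23 °C replicate 1 or 2 of ozs3 or 4 °C replicate 1, 2 or 3 of Col-0 (adjusted p = 0.0626 to 0.0952, within 0.0106 to 0.0952 over the 12 left-out fits) and with a robust variance prior (0.0848).

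Genes assigned to Col-0 at 4 °C were led by AT1G66800, of the NAD(P)-binding Rossmann-fold family. It had 6.19, 6.48 and 6.40 in ozs3 at 4 °C and 6.16, 6.79 and 6.72 in ozs3 at 23 °C, against 7.45, 7.12 and 8.02 in Col-0 at 4 °C and 6.63, 6.05 and 6.01 in Col-0 at 23 °C. Its Col-0 arrays at 4 °C lay above all others (interaction −1.50 ± 0.32, adjusted p = 0.0102), with responses of −0.20 in ozs3 (adjusted p = 0.477) and 1.30 in Col-0 (adjusted p = 0.000287). AT1G03660 was the opposite case, with 9.25, 9.15 and 9.30 in ozs3 at 4 °C and 9.62, 9.39 and 9.55 in ozs3 at 23 °C, against 8.18, 8.20 and 8.16 in Col-0 at 4 °C and 9.97, 9.59 and 9.85 in Col-0 at 23 °C. Its Col-0 arrays at 4 °C lay at 8.20 or less and all others at 9.15 or more, and the interaction was 1.35 ± 0.14, adjusted p = 0.000203. AT5G11610, of the exostosin family, had −0.32 in ozs3 and 1.0 in Col-0 (−1.32 ± 0.13, adjusted p = 0.000145), and AT5G53990, a UDP-glycosyltransferase family gene, 0.18 in ozs3 and 1.28 in Col-0 (−1.10 ± 0.21, adjusted p = 0.00664). AT1G72140, of the major facilitator superfamily, rose by 0.71 in ozs3 and 1.82 in Col-0 (−1.10 ± 0.29, adjusted p = 0.0316). AT1G72140 lost its call when the data set lacked 4 °C replicate 1 or 3 of ozs3, 23 °C replicate 2 of ozs3, 4 °C replicate 1 of Col-0 or 23 °C replicate 2 or 3 of Col-0 (adjusted p = 0.0505 to 0.0797, within 0.00858 to 0.0797 over the 12 left-out fits).

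The remaining large negative interactions were spread over several means or followed those already described, and they held 3 terpene synthase family genes, whose products make volatile isoprenoids. AT3G29410 had 9.12, 9.73 and 9.58 in ozs3 at 4 °C and 12.14, 12.50 and 12.56 in ozs3 at 23 °C, against 11.99, 11.41 and 11.50 in Col-0 at 4 °C and 13.14, 13.11 and 12.83 in Col-0 at 23 °C. It fell by differences of −2.92 in ozs3 and −1.39 in Col-0 (interaction −1.52 ± 0.25, adjusted p = 0.00288), and the ozs3 mean at 4 °C was the one that departed. AT1G31950 fell by differences of −2.62 in ozs3 and −1.21 in Col-0 (−1.41 ± 0.20, adjusted p = 0.00122). AT3G32030 had 6.40, 6.77 and 5.93 in ozs3 at 4 °C and 7.95, 8.20 and 7.63 in ozs3 at 23 °C, against 7.12, 6.96 and 7.08 in Col-0 at 4 °C and 6.77, 6.72 and 6.88 in Col-0 at 23 °C (interaction −1.82 ± 0.25, adjusted p = 0.00115). All 3 ozs3 arrays at 23 °C lay above every other array, cold lowered it in ozs3 (−1.56, adjusted p = 5.62e-06), and the Col-0 response was 0.26 (adjusted p = 0.272). Its probe set is of the s type, which can match transcripts of related genes.

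AT5G62340, a pectin methylesterase inhibitor family gene, fell in ozs3 (−0.68, adjusted p = 0.0321) and rose in Col-0 (1.03, adjusted p = 0.00304), with an interaction of −1.71 ± 0.34, adjusted p = 0.00773. AT3G54070, an ankyrin repeat family gene, did the same, with −0.73 in ozs3 and 0.91 in Col-0 (−1.64 ± 0.32, adjusted p = 0.00636), as did AT5G02350 with −0.72 in ozs3 and 0.92 in Col-0 (−1.64 ± 0.30, adjusted p = 0.0047). In all 3 the arrays of each genotype were apart between temperatures. AT5G49870, of the jacalin lectin family, had −1.05 in ozs3 and 0.54 in Col-0 (−1.59 ± 0.22, adjusted p = 0.00122), and its genotype difference was −0.07 at 4 °C and 1.52 at 23 °C. AT5G38030, a second MATE family transporter, had −1.48 in ozs3 and 0.33 in Col-0 (−1.81 ± 0.37, adjusted p = 0.00822), the reverse sign of AT2G04050.

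A negative interaction also arose where cold raised a gene more in Col-0. AT4G29690, of the nucleotide pyrophosphatase/phosphodiesterase family, had 8.17, 8.59 and 8.28 in ozs3 at 4 °C and 6.74, 6.58 and 6.68 in ozs3 at 23 °C, against 9.16, 9.36 and 9.48 in Col-0 at 4 °C and 6.36, 6.35 and 5.84 in Col-0 at 23 °C. It rose by 1.68 in ozs3 and 3.15 in Col-0 (interaction −1.46 ± 0.20, adjusted p = 0.00122). AT5G50140, another ankyrin repeat family gene, rose by 0.90 in ozs3 and 2.28 in Col-0 (−1.39 ± 0.23, adjusted p = 0.00268), and its Col-0 mean at 23 °C of 6.63 was the lowest of the 4.

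The list of mitochondrial dysfunction genes had 22 members, and a named probe set was found for 11. The interaction was positive and called for 9 of the 11 and negative and called for none, where 3.97% of all named genes were positive and called. The list median was 1.40, against 0.042 over all named genes. The list was chosen with results of these arrays known, and its count is no independent evidence. Cold raised 9 of the 11 and lowered 1 in ozs3, and raised 4 and lowered 3 in Col-0. Among all named genes cold raised 23.3% and lowered 25.3% in ozs3, and raised 18.1% and lowered 22.9% in Col-0. AT2G41730, AT2G04050, AT2G21640, GSTU25 and AT5G51440, described above, are among the 9 with a called interaction.

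NDB4, an external NAD(P)H dehydrogenase that bypasses complex I of the respiratory chain, had the smallest p of the list. It measured 7.55, 7.67 and 7.48 in ozs3 at 4 °C and 5.37, 5.45 and 5.32 in ozs3 at 23 °C, against 5.79, 5.69 and 5.67 in Col-0 at 4 °C and 5.02, 5.29 and 5.10 in Col-0 at 23 °C. The 3 ozs3 arrays at 4 °C lay at 7.48 or more and all others at 5.79 or less. It rose by 2.19 ± 0.09 in ozs3 and 0.58 ± 0.09 in Col-0, and the interaction was 1.60 ± 0.13, adjusted p = 9.21e-05. AT1G19020 rose by 1.42 in ozs3 (adjusted p = 3.33e-05), with 0.04 in Col-0 (adjusted p = 0.895), and its interaction was 1.38 ± 0.28, adjusted p = 0.00772.

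The MATE family gene AT2G04070 had 6.32, 6.25 and 6.43 in ozs3 at 4 °C and 5.26, 5.24 and 5.64 in ozs3 at 23 °C, against 5.57, 5.84 and 5.55 in Col-0 at 4 °C and 5.55, 5.57 and 6.84 in Col-0 at 23 °C (interaction 1.29 ± 0.37, adjusted p = 0.0407). AT2G04070 lost its call when the data set lacked 4 °C replicate 1, 2 or 3 of ozs3, 23 °C replicate 1 or 2 of ozs3 or 4 °C replicate 1, 2 or 3 of Col-0 (adjusted p = 0.05 to 0.0905, within 0.0127 to 0.0905 over the 12 left-out fits) and with a robust variance prior (0.0571). AT5G09570 had 0.37 in ozs3 and −0.29 in Col-0 (0.66 ± 0.18, adjusted p = 0.0351) at levels between 4.83 and 5.39. AT5G09570 lost its call when the data set lacked 4 °C replicate 1 or 2 of ozs3, 23 °C replicate 1 or 3 of ozs3, 4 °C replicate 2 or 3 of Col-0 or 23 °C replicate 3 of Col-0 (adjusted p = 0.0618 to 0.08, within 0.0163 to 0.08 over the 12 left-out fits) and with repeated quantile normalization (0.0637). NDB2, also an external NAD(P)H dehydrogenase, had 10.71, 10.73 and 10.88 in ozs3 at 4 °C and 8.30, 8.10 and 8.56 in ozs3 at 23 °C, against 10.86, 10.76 and 10.86 in Col-0 at 4 °C and 8.20, 7.97 and 8.40 in Col-0 at 23 °C. It rose in both genotypes, by 2.45 in ozs3 and 2.64 in Col-0, and the interaction of −0.19 ± 0.18, adjusted p = 0.544 did not pass. The last member, AT5G64400, had an interaction of −0.10 ± 0.11, adjusted p = 0.612. AT2G04070, AT5G09570, NDB2 and AT5G64400 are named to complete the list, after their values were seen.

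**Figure D4:**
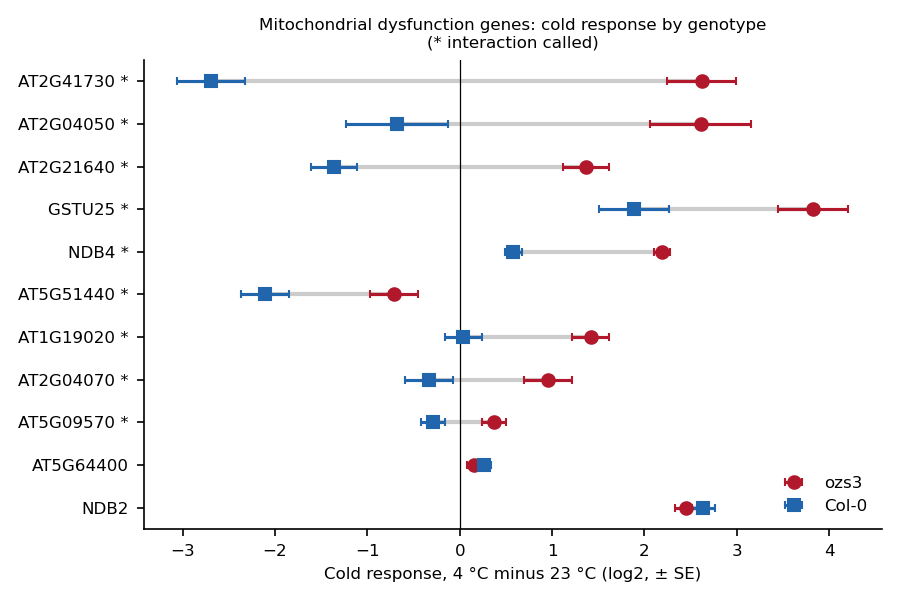
Cold response (4 °C minus 23 °C, log2, ± SE) of the 11 measured mitochondrial dysfunction genes in ozs3 (circles) and Col-0 (squares), ordered by the interaction, with a star where it was called. In 9 of the 11 genes the ozs3 point lies to the right of the Col-0 point, and NDB2 and AT5G64400 have the points close together.

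The cold-regulated genes had 8 measured members of 26, and cold raised all 8 in both genotypes, with median responses of 3.25 in ozs3 and 3.36 in Col-0. Among all named genes cold raised 23.3% in ozs3 and 18.1% in Col-0. The interaction was called for 2 of the 8, both positive, where 3.97% of all named genes were positive and called, and the list median was 0.76. Beside COR28 this was LEA4-5, a late embryogenesis abundant protein, with 9.22, 8.58 and 8.84 in ozs3 at 4 °C and 5.08, 4.66 and 5.30 in ozs3 at 23 °C, against 7.93, 8.55 and 7.76 in Col-0 at 4 °C and 5.15, 5.36 and 5.16 in Col-0 at 23 °C. It rose by 3.87 in ozs3 and 2.86 in Col-0 (1.01 ± 0.30, adjusted p = 0.0458). LEA4-5 lost its call when the data set lacked 4 °C replicate 1 or 3 of ozs3, 23 °C replicate 1 or 2 of ozs3, 4 °C replicate 1 or 3 of Col-0 or 23 °C replicate 1, 2 or 3 of Col-0 (adjusted p = 0.0676 to 0.109, within 0.0114 to 0.109 over the 12 left-out fits) and with a robust variance prior (0.0501) or repeated quantile normalization (0.0514).

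COR15A, whose product protects chloroplast membranes in the cold, had 11.39, 11.29 and 11.60 in ozs3 at 4 °C and 5.24, 5.23 and 7.60 in ozs3 at 23 °C, against 10.74, 10.41 and 10.89 in Col-0 at 4 °C and 5.23, 4.64 and 5.25 in Col-0 at 23 °C. In ozs3 at 23 °C replicate 3, at 7.60, stood above the other arrays of its group. The responses were 5.40 in ozs3 and 5.64 in Col-0, and the interaction was −0.23 ± 0.65, adjusted p = 0.855, or 0.55 without that array, within −0.63 to 0.55 over the 12 arrays left out in turn. LTI30, a dehydrin, had 2.34 in ozs3 and 3.92 in Col-0 (−1.58 ± 0.57, adjusted p = 0.0954), which passed when 23 °C replicate 2 of ozs3 was left out (adjusted p = 0.0161, within 0.0161 to 0.2 over the 12 left-out fits). The LTI30 interaction was −1.01 when 23 °C replicate 3 of ozs3 was left out. STZ, a zinc finger repressor, had an interaction of 0.90 ± 0.34, adjusted p = 0.112. It passed when 23 °C replicate 3 of ozs3 or 23 °C replicate 2 of Col-0 was left out (adjusted p = 0.0106 and 0.0411, within 0.0106 to 0.244 over the 12 left-out fits) and with array weights (0.0251).

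The unfolded protein response list had 5 measured members of 20, with 1 positive and 1 negative call and a median of 0.02. Of all named genes, 3.97% were positive and called and 5.46% negative and called. BZIP60, a transcription factor of that response, had 11.34, 11.52 and 11.55 in ozs3 at 4 °C and 10.17, 10.24 and 10.58 in ozs3 at 23 °C, against 10.78, 10.75 and 10.64 in Col-0 at 4 °C and 10.59, 10.30 and 10.61 in Col-0 at 23 °C. Its ozs3 arrays at 4 °C were the highest of all (interaction 0.91 ± 0.17, adjusted p = 0.00479). CRT1b, a calreticulin chaperone of the endoplasmic reticulum, had 11.82, 11.57 and 11.60 in ozs3 at 4 °C and 11.33, 11.17 and 11.17 in ozs3 at 23 °C, against 12.43, 12.30 and 12.44 in Col-0 at 4 °C and 11.15, 10.87 and 10.91 in Col-0 at 23 °C. It rose by 0.44 in ozs3 and 1.41 in Col-0 (interaction −0.97 ± 0.14, adjusted p = 0.0014), so the interactions of BZIP60 and CRT1b had opposite signs. BZIP17 had 0.39 ± 0.13, adjusted p = 0.0806, which passed when 4 °C replicate 3 of Col-0 was left out (adjusted p = 0.0317, within 0.0317 to 0.176 over the 12 left-out fits), with 1 common median (0.0482) and with array weights (0.0344).

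For zinc homeostasis, 3 of 24 list members were measured and 1 was positive and called, where 3.97% of all named genes were. ZIP9, of the zinc uptake transporter family, had 7.70, 7.27 and 7.69 in ozs3 at 4 °C and 9.15, 9.01 and 8.90 in ozs3 at 23 °C, against 7.14, 6.86 and 7.24 in Col-0 at 4 °C and 9.46, 9.85 and 9.02 in Col-0 at 23 °C. Cold lowered it in both genotypes, with −1.47 in ozs3 and −2.36 in Col-0, and the interaction was 0.89 ± 0.26, adjusted p = 0.0425. ZIP9 lost its call when the data set lacked 4 °C replicate 1 or 3 of ozs3, 23 °C replicate 1, 2 or 3 of ozs3, 4 °C replicate 1, 2 or 3 of Col-0 or 23 °C replicate 1 or 2 of Col-0 (adjusted p = 0.0517 to 0.0956, within 0.0102 to 0.0956 over the 12 left-out fits). MTPA1, a zinc transporter, had 5.23, 4.98 and 4.99 in ozs3 at 4 °C and 5.67, 4.91 and 4.77 in ozs3 at 23 °C, against 5.45, 4.59 and 4.46 in Col-0 at 4 °C and 7.39, 7.64 and 5.39 in Col-0 at 23 °C. In Col-0 at 23 °C, replicates 1 and 2 lay above all other arrays while replicate 3 lay among them, and the interaction of 1.92 ± 0.65, adjusted p = 0.0783 was 2.63 and passed without replicate 3 (adjusted p = 0.0022, within 0.0022 to 0.165 over the 12 left-out fits). bZIP19, a regulator of zinc deficiency, had 0.32 ± 0.16, adjusted p = 0.222.

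Iron deficiency genes had 7 measured members of 24, with 2 positive calls, no negative call and a median of 0.14. The shares over all named genes were 3.97% positive and 5.46% negative calls. PYE, a transcription factor that balances iron, had 8.30, 8.10 and 8.08 in ozs3 at 4 °C and 7.65, 7.74 and 7.51 in ozs3 at 23 °C, against 7.88, 7.87 and 7.52 in Col-0 at 4 °C and 7.95, 8.13 and 8.10 in Col-0 at 23 °C. It rose in ozs3 (0.52, adjusted p = 0.00118) and fell in Col-0 (−0.30, adjusted p = 0.0374), and the interaction was 0.83 ± 0.16, adjusted p = 0.00556. AT1G47400, a short peptide gene of the iron deficiency response, had 8.32, 8.83 and 8.41 in ozs3 at 4 °C and 5.52, 5.59 and 5.69 in ozs3 at 23 °C, against 8.34, 8.43 and 8.67 in Col-0 at 4 °C and 6.29, 6.89 and 6.50 in Col-0 at 23 °C. The cold arrays of the genotypes overlapped, and at 23 °C ozs3 lay below Col-0 by a genotype difference of −0.96 (adjusted p = 0.00251), with an interaction of 1.0 ± 0.22, adjusted p = 0.0128.

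Of 40 ribosome biogenesis genes 15 were measured, and cold raised 11 of them and lowered none in ozs3, and raised 13 and lowered 1 (DIM1A, −0.41, adjusted p = 0.00276) in Col-0, with median responses of 0.56 in ozs3 and 0.70 in Col-0. Among all named genes cold raised 23.3% and lowered 25.3% in ozs3, and raised 18.1% and lowered 22.9% in Col-0. The interaction was called for 1 of the 15, which was negative, against 5.46% negative calls over all named genes, and the median was −0.08. That member, AT3G05060, a NOP58-like nucleolar protein, rose by 0.56 in ozs3 and 1.0 in Col-0 (−0.43 ± 0.12, adjusted p = 0.0374). AT3G05060 lost its call when the data set lacked 4 °C replicate 1 or 3 of ozs3, 23 °C replicate 1, 2 or 3 of ozs3, 4 °C replicate 3 of Col-0 or 23 °C replicate 1 or 2 of Col-0 (adjusted p = 0.0578 to 0.0806, within 0.0365 to 0.0806 over the 12 left-out fits) and with 1 common median (0.0913). AT4G28450, which encodes the WD40 protein SOF1, had 9.21, 9.08 and 9.17 in ozs3 at 4 °C and 8.73, 8.64 and 8.47 in ozs3 at 23 °C, against 9.26, 9.09 and 9.16 in Col-0 at 4 °C and 8.41, 8.81 and 8.38 in Col-0 at 23 °C, and its interaction of −0.10 ± 0.16, adjusted p = 0.734 did not pass.

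No call was made among 5 heat shock genes, whose median was 0.53 with all 5 positive, or in the sugar starvation and circadian clock lists, each with 1 measured gene. Over all named genes 56.6% of interactions were positive, called or not. In ozs3 cold lowered 3 of the 5 heat shock genes and in Col-0 all 5, where it lowered 25.3% of all named genes in ozs3 and 22.9% in Col-0. AT1G53540, a small heat shock protein, had 1.60 ± 0.60, adjusted p = 0.11, and it passed when 23 °C replicate 3 of ozs3 was left out (adjusted p = 0.0314, within 0.0314 to 0.219 over the 12 left-out fits) and was 0.97 without 23 °C replicate 1 of ozs3. AT5G20790, the 1 measured member of the sugar starvation list, had 1.02 ± 0.55, adjusted p = 0.268. It passed without 23 °C replicate 3 of ozs3 (adjusted p = 0.0414, within 0.0414 to 0.496 over the 12 left-out fits), but was 0.44 without 23 °C replicate 2 of ozs3. The clock gene GI had −0.19 ± 0.15, adjusted p = 0.469. Of 2 measured defence and camalexin genes AT1G26380 was called and WRKY53 was not (0.26 ± 0.18, adjusted p = 0.396). Of 5 core hypoxia genes the TIR-NBS gene AT1G72940 was called, with 1.02 in ozs3 and −0.07 in Col-0 (1.08 ± 0.27, adjusted p = 0.0245). For both of these lists the share of positive calls over all named genes was 3.97%. AT1G72940 lost its call when the data set lacked 4 °C replicate 3 of ozs3 or 4 °C replicate 1 or 3 of Col-0 (adjusted p = 0.0531 to 0.0613, within 0.0127 to 0.0613 over the 12 left-out fits).

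None of 3 root hair genes or the 1 stele gene was called without the replicate block. With it the root hair genes EXPA7 (adjusted p = 0.00841) and XTH26 (0.00464) passed. Of 5 leaf and shoot genes CHLM, an enzyme of chlorophyll synthesis, was negative and called without the block, where 5.46% of all named genes were. It fell by differences of −1.87 in ozs3 and −1.38 in Col-0 (−0.49 ± 0.14, adjusted p = 0.0428). CHLM lost its call when the data set lacked 4 °C replicate 2 or 3 of ozs3, 23 °C replicate 1 or 2 of ozs3, 4 °C replicate 1, 2 or 3 of Col-0 or 23 °C replicate 1 or 3 of Col-0 (adjusted p = 0.0533 to 0.107, within 0.0172 to 0.107 over the 12 left-out fits) and with 1 common median (0.0575). The root hair wall enzyme gene XTH26 had −1.03 ± 0.37, adjusted p = 0.096 and passed when 4 °C replicate 2 of Col-0 was left out (adjusted p = 0.0436, within 0.0436 to 0.194 over the 12 left-out fits).

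Gene families were drawn by symbol patterns. Among 14 glutathione transferases 1 call was positive (GSTU25) and 3 were negative, where 3.97% of all named genes were positive and 5.46% negative and called, and the median was −0.16. GSTU22 had 1.44 ± 0.46, adjusted p = 0.0632, and did not pass. With an intensity trend, the replicate block or array weights 2 calls were positive, and with a robust variance prior none was. Negative calls numbered 4 with the block and 2 with repeated quantile normalization or 1 common median. GSTU26 had 8.72, 8.89 and 8.59 in ozs3 at 4 °C and 9.53, 9.23 and 9.59 in ozs3 at 23 °C, against 10.01, 9.86 and 9.79 in Col-0 at 4 °C and 9.85, 9.46 and 9.64 in Col-0 at 23 °C, and its interaction was −0.96 ± 0.17, adjusted p = 0.00486. The ozs3 arrays at 4 °C were the lowest of all 12, with a genotype difference of −1.15 at 4 °C (adjusted p = 8.4e-05). GSTU20 fell in ozs3 (−0.52, adjusted p = 0.0106), with 0.35 in Col-0 (adjusted p = 0.0795), and its interaction was −0.87 ± 0.21, adjusted p = 0.0222. GSTU20 lost its call when the data set lacked 23 °C replicate 1 or 2 of ozs3 or 23 °C replicate 1 of Col-0 (adjusted p = 0.0515 to 0.0577, within 0.0144 to 0.0577 over the 12 left-out fits). The third negative call was GSTU23 (−0.85 ± 0.24, adjusted p = 0.0431). GSTU23 lost its call when the data set lacked 4 °C replicate 1 or 3 of ozs3, 23 °C replicate 1 or 2 of ozs3, 4 °C replicate 2 or 3 of Col-0 or 23 °C replicate 1, 2 or 3 of Col-0 (adjusted p = 0.0608 to 0.0969, within 0.0169 to 0.0969 over the 12 left-out fits) and with repeated quantile normalization (0.0639) or 1 common median (0.061).

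Of 26 genes matched as cytochrome P450s 3 were called, all negative (2 negative and 1 positive with 1 common median). The median of the 26 was 0.03, and 5.46% of all named genes were negative and called. The 26 hold CYP71 and CYP59, cyclophilins that only share the symbol, neither of them called. CYP71B24, with means at or below 4.18, had 0.53 ± 0.16, adjusted p = 0.0531. It passed with 1 common median (0.0341), array weights (0.0168) and a variance prior with an intensity trend (0.0349). CYP71B26 had 7.81, 8.22 and 8.07 in ozs3 at 4 °C and 9.73, 9.84 and 10.13 in ozs3 at 23 °C, against 8.86, 8.93 and 8.78 in Col-0 at 4 °C and 9.54, 9.39 and 9.69 in Col-0 at 23 °C. It fell by differences of −1.87 in ozs3 and −0.68 in Col-0 (interaction −1.19 ± 0.18, adjusted p = 0.00159). CYP71B37 fell by differences of −2.09 in ozs3 and −1.02 in Col-0 (−1.07 ± 0.19, adjusted p = 0.00427), and the third call was CYP718 (−0.75 ± 0.21, adjusted p = 0.0404). CYP718 lost its call when the data set lacked 4 °C replicate 2 or 3 of ozs3, 23 °C replicate 1, 2 or 3 of ozs3, 4 °C replicate 1 or 3 of Col-0 or 23 °C replicate 1 or 3 of Col-0 (adjusted p = 0.0515 to 0.0946, within 0.0137 to 0.0946 over the 12 left-out fits) and with 1 common median (0.0524).

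Of 50 genes matched as UDP-glycosyltransferases 2 calls were positive and 4 negative, against 3.97% and 5.46% of all named genes, with a median of 0.06. AT5G53990, described above, was not matched and is not among the 50. The negative calls were UGT78D1 (−0.48), UGT85A2 (−0.47), UGT76D1 (−0.46) and SGT (−0.42), with adjusted p = 0.0274 to 0.0484. UGT78D1 was in the dim range in every group but Col-0 at 4 °C, where its mean was 5.01. UGT78D1 and UGT76D1 are named only to complete the negative calls, and their calls were not followed over the left-out fits. UGT85A2 kept its call in 8 and SGT in 6 of the 12 left-out fits, and both lost it with 1 common median (0.0746 and 0.0543). UGT73B4 rose by 1.96 in ozs3 and 0.75 in Col-0 (1.21 ± 0.28, adjusted p = 0.0167). The other positive call, UGT87A2 (1.04 ± 0.25, adjusted p = 0.0213), was kept in 9 of the 12 left-out fits. Of 29 expansins and xyloglucan endotransglucosylases (XTHs), which loosen and rebuild the cell wall, 2 were positive and none negative, against 3.97% positive calls over all named genes. Their median was 0.24, and 23 of 29 lay above 0, against 56.6% of all named genes. With 1 common median 4 were positive, since EXPA20 (adjusted p = 0.0249) and EXGT-A3 (0.0226) also passed. Array weights gave 4 positive calls as well. With the replicate block 5 were positive and 2 negative, and XTH26 (−1.03, adjusted p = 0.00464) was among the negative ones. EXLA2, an expansin-like gene, had 9.18, 9.01 and 8.81 in ozs3 at 4 °C and 5.51, 5.48 and 5.81 in ozs3 at 23 °C, against 8.15, 8.32 and 7.88 in Col-0 at 4 °C and 5.51, 5.47 and 5.39 in Col-0 at 23 °C. Cold raised it by 3.40 in ozs3 and 2.66 in Col-0, and the cold arrays of ozs3 lay above those of Col-0 (interaction 0.74 ± 0.18, adjusted p = 0.0218). EXLA2 lost its call when the data set lacked 23 °C replicate 1 or 2 of ozs3 (adjusted p = 0.0559 to 0.0578, within 0.0114 to 0.0578 over the 12 left-out fits). The other positive call, XTH29, had 0.51 ± 0.14, adjusted p = 0.0354, with all group means in the dim range, at or below 4.37. XTH29 kept its call in 3 of the 12 left-out fits and lost it with repeated quantile normalization (0.115).

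WRKY6 was the 1 called gene of 6 WRKY factors, and rose by 1.77 in ozs3 and 0.72 in Col-0 (1.05 ± 0.19, adjusted p = 0.00487). For this and the next families, the shares over all named genes were 3.97% positive and 5.46% negative calls. Among 15 genes matched as plant defensins, 2 calls were positive and 1 negative, and the negative one is PDF1B, a peptide deformylase that only shares the symbol (−0.84 ± 0.16, adjusted p = 0.0066). PDF1.4 fell in Col-0 (−0.84, adjusted p = 1.08e-05), with 0.0 in ozs3, and its interaction was 0.84 ± 0.14, adjusted p = 0.00313. Its means were in the dim range in ozs3 at 4 °C (4.98), ozs3 at 23 °C (4.98) and Col-0 at 4 °C (4.82). ATG101 (AT5G66930), of the kinase complex that starts autophagy, was the 1 call of 11 autophagy genes. It fell by differences of −0.76 in ozs3 and −1.31 in Col-0 (0.55 ± 0.13, adjusted p = 0.0169). ATG8E had 0.78 ± 0.24, adjusted p = 0.051, within 0.0111 to 0.118 over the 12 left-out fits. It passed with an intensity trend (0.0373), a robust variance prior (0.0487), 1 common median (0.0371), array weights (0.0104) and the dim filter (0.0452). With repeated quantile normalization ATG8E did not pass. Of 7 histone genes HTB11, a histone H2B, was called. It had 10.14, 10.38 and 10.32 in ozs3 at 4 °C and 10.74, 10.63 and 10.54 in ozs3 at 23 °C, against 9.64, 9.33 and 9.48 in Col-0 at 4 °C and 8.99, 8.44 and 9.28 in Col-0 at 23 °C (interaction −0.93 ± 0.23, adjusted p = 0.0235). HTB11 lost its call when the data set lacked 23 °C replicate 1 or 2 of ozs3 or 4 °C replicate 1 of Col-0 (adjusted p = 0.0506 to 0.0593, within 0.00658 to 0.0593 over the 12 left-out fits). No call was made among 7 tubulins, 8 nuclear photosynthesis genes, 3 genes matched as peroxidases or the 1 NAC factor, 1 small heat shock protein and 1 gene matched as an aquaporin. The tubulin TUB5 (−0.54 ± 0.17, adjusted p = 0.0572) passed with an intensity trend (0.0418), repeated quantile normalization (0.0451) and the dim filter (0.0498). PRXIIF, matched as a peroxidase, is a peroxiredoxin (0.34 ± 0.12, adjusted p = 0.0795), and it passed with 1 common median (0.0238).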

How the data were processed

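Roots of ozs3 and Col-0 plants at 4 °C and 23 °C were measured on 12 arrays, 3 biological replicates in each of 4 groups taken from the labels. The authors deposited log2 values made with RMA, per the submitters' processing notes; no version of it is given in the sources used here. No normalization was added. The medians of the deposited arrays differed (6.99 to 7.20), so differences are relative to the authors' scaling. Values ran from 2.91 to 15, and arrays give no read depth, so the number of arrays limits the precision. No technical batch is given in the labels.

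After 64 controls were left out, 22746 probe sets entered 1 group-means model in limma 3.58.1 (R 4.3.3, eBayes; 8 residual, 5.42 prior degrees of freedom), with Benjamini-Hochberg adjustment over all probe sets and a threshold of 0.05. The script was tested on simulated data with changes put into 1 group mean. Of 100 changes of 1 on the log2 scale 97 were called. The share rule assigned 71 to the changed group, 9 to another group and 17 to several means. For changes of 2 all 100 were called, with 84, 2 and 14 in that order. Smaller changes were not simulated, while the median size of the called interactions was 0.68 for positive and 0.66 for negative ones. The platform annotation named 1 gene for 13513 probe sets, several for 503 and none for 8730; loci of 13436 were matched to the TAIR10.1 gene table. Unnamed probe sets enter counts only. The genes named are those of the rules in the report, up to 4 members of each list with the smallest p, AT4G28450, COR15A, ZIP9 and AT2G21640. The interaction, the lists and these genes were chosen with earlier results of these data known. Symbol patterns for AP2/ERF factors, MATE transporters, nucleolar proteins, ribosomal proteins, lipid transfer proteins and oxygenases matched no gene here.

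The labels tie the replicate numbers to no shared batch or culture, and the fits reported have no replicate block. Alternatives were the replicate block, 2 other variance priors, repeated quantile normalization, 1 common median, array weights, a filter on dim probe sets, other thresholds and leaving out each array. A planned count of promoter motifs was not run, since no promoter sequences were used here.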

Additional observations from a re-analysis of the deposited data

Results flagged for a closer look

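The naming rules of the report picked 132 genes, of which 75 had a called interaction. Of these 75, 16 had cold responses in opposite directions in the genotypes, with the arrays at 4 °C and 23 °C apart in both. The share of all named genes meeting this rule was not counted, and the 132 were picked in part for large interactions. The test of the difference is the limma interaction itself. The responses were higher in ozs3 for AT2G41730 (5.31, from 2.62 in ozs3 and −2.69 in Col-0), AT1G10875 (3.44, from 1.78 in ozs3 and −1.66 in Col-0), AT2G21640 (2.73, from 1.37 in ozs3 and −1.36 in Col-0) and AT2G22880 (2.45, from 1.28 in ozs3 and −1.17 in Col-0). They were also higher in ozs3 for AT4G28460 (2.16, from 0.81 in ozs3 and −1.36 in Col-0), AT1G76600 (2.02, from 0.77 in ozs3 and −1.25 in Col-0), CCOAMT (1.97, from 1.06 in ozs3 and −0.91 in Col-0) and PYE (0.83, from 0.52 in ozs3 and −0.30 in Col-0). The responses were lower in ozs3 for GSTU20 (−0.87, from −0.52 in ozs3 and 0.35 in Col-0), HTB11 (−0.93, from −0.36 in ozs3 and 0.58 in Col-0), AT5G11610 (−1.32, from −0.32 in ozs3 and 1.00 in Col-0) and AT5G36160 (−1.45, from −1.18 in ozs3 and 0.26 in Col-0). They were likewise lower in ozs3 for AT3G54070 (−1.64, from −0.73 in ozs3 and 0.91 in Col-0), AT5G02350 (−1.64, from −0.72 in ozs3 and 0.92 in Col-0), AT5G62340 (−1.71, from −0.68 in ozs3 and 1.03 in Col-0) and AT3G32030 (−1.82, from −1.56 in ozs3 and 0.26 in Col-0). In 4 of the 16 one of the responses did not pass by itself: AT4G28460 and HTB11 in ozs3 (adjusted p = 0.0989 and 0.0864), and GSTU20 and AT3G32030 in Col-0 (0.0795 and 0.272). By another rule, with the interaction and both responses called, 154 of all probe sets ran in opposite directions, 87 of them among the 13350 genes with a name. These counts are no background for the 16, since 4 of the 16 fail that rule. Groups of 3 arrays are too small for a test of single outlying arrays.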

How the results depend on the processing

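Of the 132 genes picked by the naming rules, 75 had a called interaction, and 52 of these kept the call with every array left out in turn. At the same threshold of 0.05, 61 of the 75 kept it in all of the other fits. These were the replicate block, 2 other variance priors, repeated quantile normalization, 1 common median, array weights and, where a gene was tested in it, the dim filter. No called probe set changed sign under any of these fits. The number of interaction calls ranged from 1439 to 2279 over the arrays left out, of which ozs3 replicates 1 and 2 at 23 °C gave 1439 and 1457. Over the same fits there were 588 to 947 positive and 813 to 1332 negative calls, 767 to 1551 calls for the genotype difference at 23 °C, 365 to 605 probe sets assigned to ozs3 at 4 °C, 75 to 145 to ozs3 at 23 °C, 73 to 124 to Col-0 at 4 °C, 78 to 137 to Col-0 at 23 °C and 787 to 1408 to several means. With the replicate block there were 3379 interaction calls, all 2300 among them, with 1472 positive, 2253 calls for the genotype difference at 23 °C, and 182, 219 and 254 probe sets assigned to ozs3 at 23 °C, Col-0 at 4 °C and Col-0 at 23 °C. None of the 75 called named genes lost its call with the block, and 13 of the 57 others passed: MTPA1 (adjusted p = 0.0167), ATG8E (0.0451), PSBY (0.0141), EXPA20 (0.0321), EXPA7 (0.00841), CYP71B24 (0.026), EXGT-A3 (0.0442), AT4G10270 (0.0495), BZIP17 (0.0355), TUB5 (0.0303), ATG8B (0.0377), XTH26 (0.00464) and LTI30 (0.0343). Same-numbered arrays deviated together (correlation of deviations over 0.1) in 16 of 18 pairs, with a lowest value of 0.031, and all 12 arrays correlated best with arrays of their own number, a hint of pairing from the data and not from the design. With 1 common median 1642 interactions were positive, 64% of the calls against 42.5%, and the median interaction over all probe sets was 0.113 against 0.031. Array weights gave 2323 calls for the genotype difference at 23 °C. An adjusted p under 0.01 left 805 calls, 332 positive and 473 negative. A lower limit on the share, 2/3, assigned 179 probe sets to ozs3 at 23 °C. With interactions of at least 1, 98, 28, 20 and 23 probe sets were assigned to ozs3 at 4 °C, ozs3 at 23 °C, Col-0 at 4 °C and Col-0 at 23 °C, and 240 to several means; with both partner shares between −0.25 and 0.25, chosen after seeing the data, 194, 44, 57 and 50 in the same order. Among interactions that were not called, COR15A changed sign to 0.27 with array weights and 0.55 without ozs3 replicate 3 at 23 °C, LHCB4.2 to 0.04 without Col-0 replicate 3 at 23 °C, and AT3G10040 to −0.04 without ozs3 replicate 2 at 4 °C; over all left-out arrays they ran from −0.63 to 0.55, −0.74 to 0.04 and −0.04 to 0.38, and the cause was not tested. Precision rests on 3 arrays per group, and 6.3% of called probe sets had a mean over all arrays at or below 5.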
